A study of Homo sapiens with 6 samples.

Results

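MHC class I antigen presentation was followed in SKOV3 ovarian cancer cells through 10 genes: the peptide transporter genes TAP1 and TAP2, the loading factor gene TAPBP, the peptide trimming gene ERAP1, the inducible proteasome genes PSMB8, PSMB9 and PSMB10, the light chain gene B2M, the heavy chain gene HLA-E and the regulator gene NLRC5. The genes were chosen by name, with earlier results of these arrays known. All 23 probe sets that the platform annotation assigns to them alone were taken from the 54675 on the array. The brightest probe set by mean log2 signal stood for each gene, and all 10 were among the 12206 genes (of 19775) whose mean lay at or above the median of all probe sets, a signal of 65.5. Of the 23 probe sets, 20 lay above that level. A probe set is a group of array oligonucleotides against 1 transcript region, and its MAS5 signal is a linear intensity scaled to the same trimmed mean on every array.

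The study's question was what the microRNA miR-21 does to transcripts of ovarian carcinoma cells. Cultures of SKOV3, an established human line that the labels class as high grade serous ovarian cancer, received either 5 nM of a miR21 precursor (3 arrays) or a negative control precursor (3 arrays) and were collected 24 h later. No untransfected cells were analysed here, and the labels give no dose for the control precursor. Each group holds replicate numbers 1, 2 and 3, and same-numbered arrays shared much of their deviation from the group means, so differences are given within each number. Separate cultures are not stated for the replicates; the p-values here therefore cover the spread of these arrays alone, which may be technical. Of 11 epithelial and ovarian markers 9 lay above the signal filter, with PAX8 at signals of 6601 to 10255, while WT1 (41.6 to 71.5) and MUC16 (3.12 to 27.3) lay below it. Leukocyte markers lay below it for 8 of 8 genes, with summed signals of 180 to 646 on control and 103 to 658 on miR21 arrays. Endothelial and fibroblast markers lay above it for 2 of 8 genes (summed signals 294 to 1118 and 250.1 to 966). The part of these in any difference was not tested.

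The mature strand listed for the miR-21 gene in RefSeq, with the seed (bases 2 to 8) in capitals, is shown because it is the product that distinguishes the groups; the labels do not give the precursor's own sequence. It lies at chr17:59841273-59841294 on the plus strand of GRCh38.p14.
hsa-miR-21-5p: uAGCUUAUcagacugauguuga

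MHC class I molecules present peptides from the cell's own proteins to cytotoxic T cells. The proteasome cuts proteins into peptides, the TAP1 and TAP2 heterodimer moves them into the endoplasmic reticulum, tapasin (TAPBP) bridges the transporter to the empty class I molecule, and ERAP1 trims peptides there to a length that fits. Interferons raise many of these genes together, in part through IRF1 and the class I transactivator NLRC5, and exchange the constitutive catalytic subunits of the proteasome for PSMB8, PSMB9 and PSMB10.

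Most of the pathway read lower with miR21, and HLA-E and NLRC5 read higher. The median log2 difference (miR21 minus control) of the 10 genes was -0.32, against -0.01 over all 12206 genes tested. A negative mean difference was found for 8 of the 10, beside 6250 of the 12206. In such bulk RNA, fewer cells that express a gene and less RNA of it per cell cannot be told apart. TAPBP (-0.59), PSMB9 (-0.63) and TAP1 (-0.41) stood lowest, and HLA-E (0.34) highest. In all 3 replicate numbers 6 of the 10 genes were lower, beside 20.9% of all genes tested, and 0 of the 10 were higher, beside 20.3%. No gene of the 10 passed limma at an adjusted p under 0.05, either without a replicate block (0 genes, 0% of all tested, and 0 of the 10 at an unadjusted p under 0.05) or with one (4 genes of all tested, 0.0328%). Leaving out 1 array moved the median to between -0.39 (without control replicate 1) and -0.073 (without miR21 replicate 1), and it was -0.13 without control replicate 2.

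**Figure D1:**
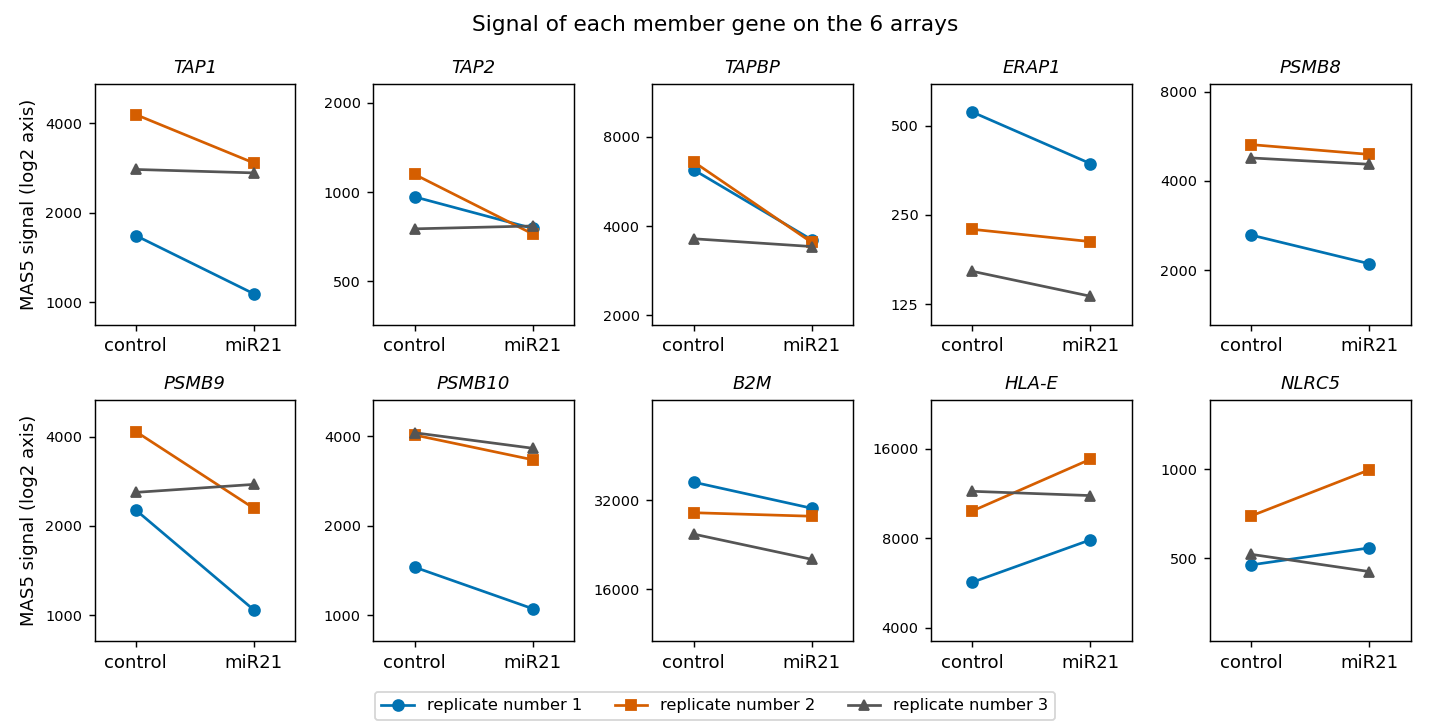
MAS5 signal (log2 axis, the same span in each panel) of the probe set that stands for each gene, on the control and miR21 arrays, with lines joining arrays of 1 replicate number. In numbers 1 and 2 the lines of TAP1, TAP2, TAPBP and PSMB9 slope down and those of HLA-E and NLRC5 slope up, while the lines of number 3 are close to flat for most genes.

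Both number 1 arrays had higher median signals (125.4 on control, 117.1 on miR21) than the other arrays (55.2 to 61.9). The trimmed mean was about 500 on every array. Whether the levels of single genes on the number 1 arrays follow from this was not tested. The differences within replicate numbers also varied in size. Within numbers 1, 2 and 3 the median of the 10 genes was -0.41, -0.21 and -0.08 on the log2 scale. The middle 90% of all genes spanned -1.08 to 0.95 in number 1, -1.21 to 1.00 in number 2 and -0.62 to 0.68 in number 3. Outside these spans lay 1 of the 10 genes in number 1 (PSMB9, -1.12) and 0 in numbers 2 and 3. Beneath the 25th percentile of all genes lay 5 members in number 1, 4 in number 2 and 2 in number 3, and above the 75th percentile lay 1, 2 and 0. Without both arrays of number 3, limma with the block called 6 of the 10 genes at an adjusted p under 0.05, 5 lower (TAP1, TAP2, TAPBP, PSMB9, PSMB10) and HLA-E higher. That fit rests on 2 pairs and called 32.8% of all genes tested, and without number 1 or number 2 it called 0 of the 10.

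**Figure D2:**
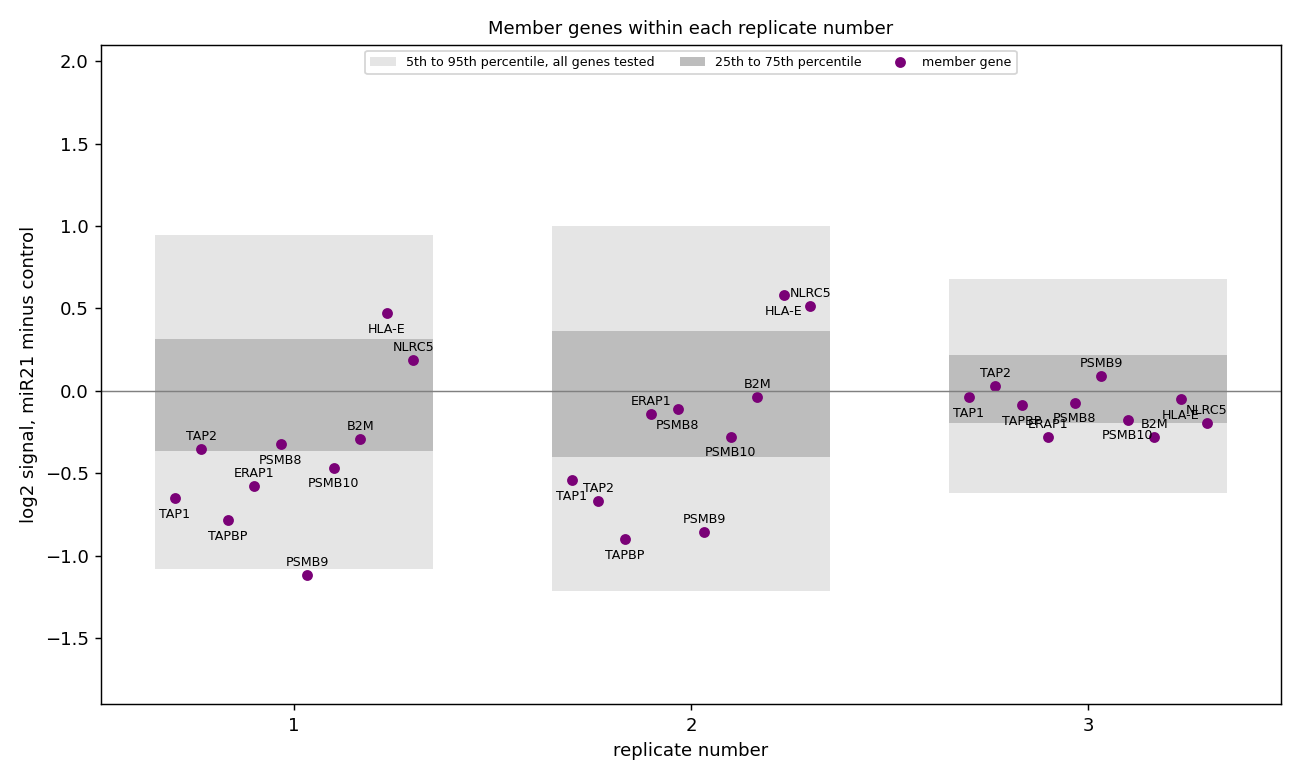
Log2 difference (miR21 minus control) of the 10 genes within replicate numbers 1, 2 and 3, over bands that span the 5th to 95th and 25th to 75th percentiles of the 12206 genes tested. The points spread from -1.12 to 0.47 in number 1, from -0.90 to 0.58 in number 2 and only from -0.28 to 0.09 in number 3.

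TAPBP encodes tapasin, the chaperone that holds class I molecules at the transporter until a peptide binds. Its signals were 6191, 6584 and 3623 on control arrays 1, 2 and 3 and 3599, 3526 and 3412 on miR21 arrays 1, 2 and 3. The groups did not overlap, although control 3 lay almost at the level of the miR21 arrays; non-overlap with miR21 lower held for 1 of the 10 genes and for 3.27% of all genes tested. The signal was 1.51-fold lower with miR21 (log2 difference -0.59, SE 0.31; limma, adjusted p = 0.9999, as for each of the 10 genes without the block). With the replicate block the SE was 0.18 and the adjusted p 0.164 in limma.

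A second TAPBP probe set (210294_at) read 156, 259 and 118 on the control and 28.3, 45.7 and 109 on the miR21 arrays. Numbers 1 and 2 thus showed a far larger drop here, -2.46 and -2.50 on the log2 scale, while number 3 was again small at -0.12. The signals on miR21 arrays 1 and 2 lay under the filter level of 65.5, where MAS5 values are noisy. The mean log2 signal of 210294_at was 7.39 on the control and 5.70 on the miR21 arrays. It thus passed the filter (6.03 on the log2 scale) only through the control arrays, which favours a lower reading with miR21. The third (1555565_s_at) differed by -0.18, with all 3 numbers lower. All 3 TAPBP probe sets were lower in every number. The mean differences were -0.59 and -0.18 for 208829_at and 1555565_s_at, and -1.69 for 210294_at with the limit just given. The exact two-sided permutation p of the first and second was 0.1 (0.575 after Benjamini-Hochberg adjustment over the 23 probe sets), and 3 arrays against 3 cannot give less than 0.1.

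TAP1, a subunit of the peptide transporter, had control signals of 1675, 4284 and 2799 and miR21 signals of 1066, 2944 and 2725. Number 1 was lowest in both groups, although its arrays had the highest median signals, and the groups overlapped. Within numbers 1, 2 and 3 the log2 differences were -0.65, -0.54 and -0.04. The mean difference was 1.33-fold lower (log2 -0.41, SE 0.51, and SE 0.16 with the block; limma, adjusted p = 0.225 with the block). TAP1 read 0.060 higher on the log2 scale once miR21 replicate 1 was left out, so its sign in the comparison without pairing depended on that array.

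TAP2, the partner of TAP1, was read by 4 probe sets, 3 of them above the filter. The one that stands for the gene (225973_at) gave 963, 1146 and 751 on the control and 754, 722 and 768 on the miR21 arrays. The miR21 arrays were close together, and control 3 lay among them, so the groups overlapped. Its log2 difference was -0.33 (SE 0.29 without and 0.19 with the block, limma, adjusted p = 0.363 with the block). The others above the filter differed by -0.17 (204769_s_at) and -0.62 (204770_at), and both were lower in all 3 numbers. Of these, 204770_at was dim, with a mean log2 signal of 6.65 on the control and 6.02 on the miR21 arrays. It passed the filter (6.03 on the log2 scale) only through the control arrays. Beneath the filter, 208428_at differed by -2.31, 2.51 and -2.02 in numbers 1, 2 and 3.

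ERAP1, the aminopeptidase of the endoplasmic reticulum, gave 555, 224 and 161 on the control and 373, 203 and 133 on the miR21 arrays (209788_s_at). Number 1 was brightest in both groups, and each miR21 array lay under the control array of its number, with overlapping groups. The log2 difference was -0.33 (SE 0.59 without and 0.24 with the block, limma, adjusted p = 0.467 with the block). Another probe set (210385_s_at) differed by -0.63, lower in all 3 numbers, and 209701_at by -0.05. Without control replicate 1 or miR21 replicate 3 the mean ERAP1 difference was 0.19 or 0.02.

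**Figure D3:**
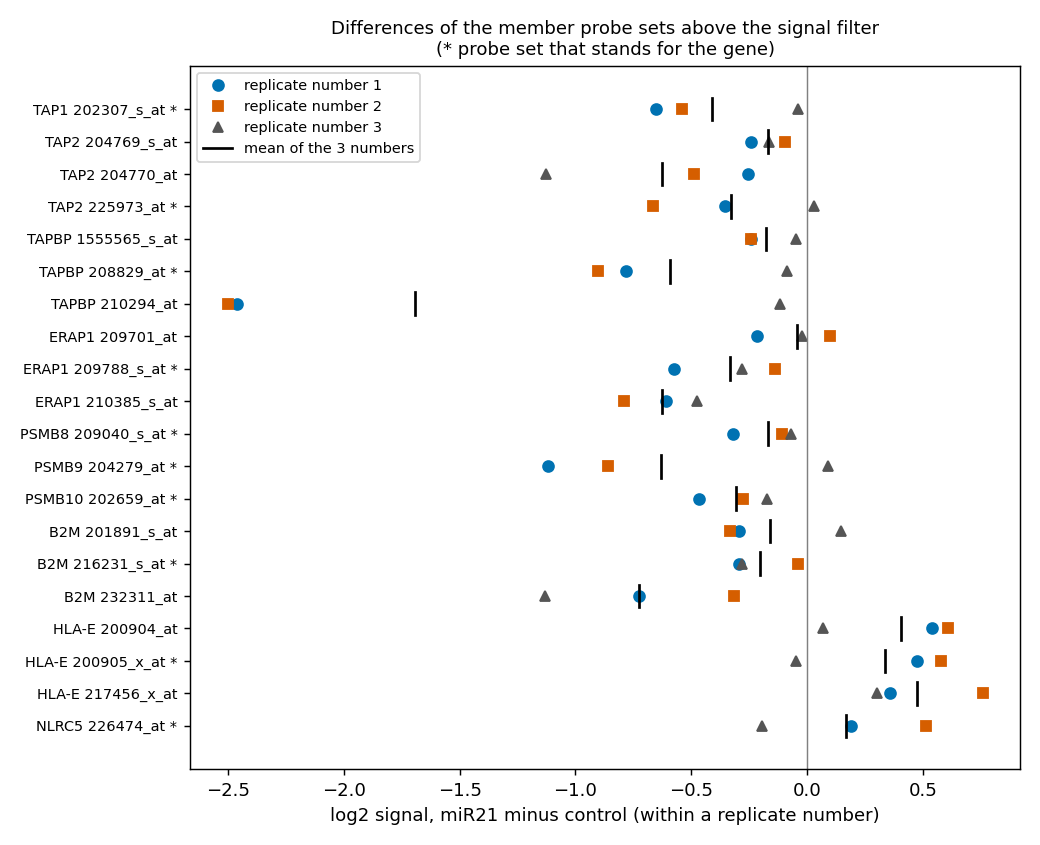
Log2 difference (miR21 minus control) of the 20 member probe sets above the signal filter, as 1 symbol per replicate number and a bar for their mean. All probe sets of TAP1, TAP2, TAPBP, ERAP1, PSMB8, PSMB9, PSMB10 and B2M have means under 0, and the 3 HLA-E probe sets and NLRC5 have means above 0.

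Of the 20 probe sets above the filter, 16 had a negative mean difference, 12 were lower in all 3 numbers, and 2, both of HLA-E, were higher in all 3. Probe sets of 1 gene share its transcripts and are not independent. No share over all probe sets stands beside these counts. The counts of lower probe sets include those of TAPBP and TAP2 that passed the filter only through the control arrays. Such passing favours a lower reading with miR21.

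The inducible catalytic subunits of the proteasome were each read by 1 probe set. PSMB9 (the inducible beta1 subunit) gave 2260.2, 4156 and 2593 on the control and 1042, 2292 and 2758 on the miR21 arrays. In numbers 1 and 2 the miR21 array was far under its control, by -1.12 and -0.86 on the log2 scale, and in number 3 it was slightly higher (0.09), so the groups overlapped. The mean was 1.55-fold lower (log2 -0.63, SE 0.44 without and 0.23 with the block, limma, adjusted p = 0.204 with the block). Leaving out 1 array moved this difference to between -0.91 (without miR21 replicate 3) and -0.20 (without miR21 replicate 1).

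PSMB10 (the inducible beta2 subunit) gave 1450.1, 4046 and 4118 on the control and 1051, 3339.7 and 3651 on the miR21 arrays. Each number was lower with miR21, and number 1 stood far under the others in both groups. Its log2 difference was -0.30 (SE 0.61, and SE 0.14 with the block; limma, adjusted p = 0.265 with the block).

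PSMB8 (the inducible beta5 subunit) gave 2626, 5299.9 and 4779.7 on the control and 2103, 4913 and 4550.2 on the miR21 arrays. It too was lower in each number, by the smallest amounts of the 3 subunits in numbers 1 and 2. The log2 difference was -0.17 (SE 0.44 without and 0.13 with the block, limma, adjusted p = 0.510 with the block). Without miR21 replicate 1 the difference was 0.22 for PSMB8 and 0.27 for PSMB10, and without control replicate 2 it was 0.03 for PSMB8.

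Set beside the constitutive subunits that they replace, PSMB9 was lower relative to its partner in numbers 1 and 2. The log2 ratio of PSMB9 over PSMB6 within an array differed by -1.002, -1.06 and 0.05 in numbers 1, 2 and 3 (mean -0.67 ± 0.63, SD, n = 3). Exact permutation over arrays, which ignores the replicate numbers, gave p = 0.4 (adjusted 0.84 over 7 ratios). PSMB10 over PSMB7 differed by -0.38, -0.41 and 0.23 (mean -0.19 ± 0.36, SD, n = 3). PSMB8 over PSMB5 differed by 0.02 ± 0.08 (SD, n = 3), so the shift of PSMB8 was close to that of its partner. The constitutive genes themselves differed by -0.18 (PSMB5), 0.04 (PSMB6) and -0.12 (PSMB7) on the log2 scale, and none passed limma. Such ratios do not depend on how an array was scaled.

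**Figure D4:**
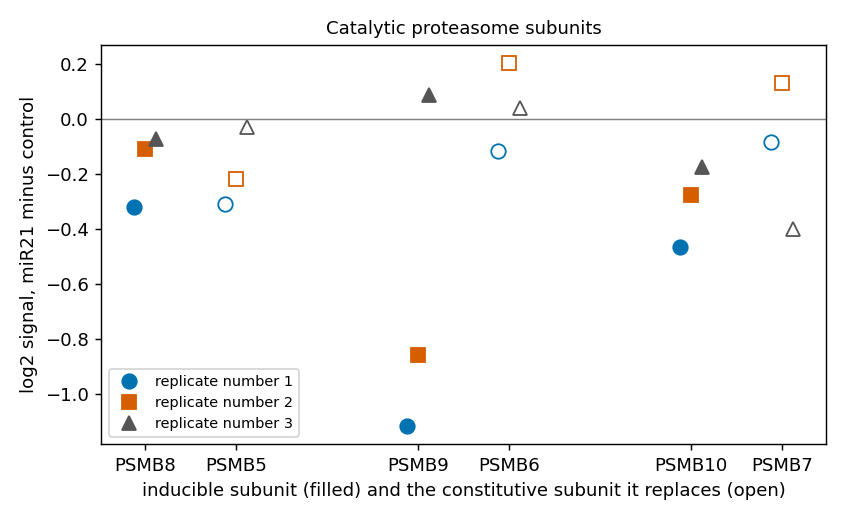
Log2 difference (miR21 minus control) within replicate numbers 1, 2 and 3 for each inducible catalytic subunit (filled symbols) and the constitutive subunit it replaces (open symbols). PSMB9 lies at -1.12 and -0.86 in numbers 1 and 2 while PSMB6 lies at -0.12 and 0.21; PSMB8 and PSMB5 lie close together in every number.

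B2M, the invariant light chain of all class I molecules, was among the brighter genes of the array. Its signals (216231_s_at) were 36775, 29008 and 24573 on the control and 30041.5, 28228 and 20206 on the miR21 arrays. Every miR21 array lay under the control array of its number, and the groups overlapped. The log2 difference was -0.20 (SE 0.28 without and 0.15 with the block, limma, adjusted p = 0.464 with the block), a signal 1.15-fold lower. It was -0.029 without miR21 replicate 3, -0.050 without control replicate 1, and -0.31 or -0.34 without miR21 replicate 1 or control replicate 3. The other bright probe set (201891_s_at) differed by -0.16, with -0.29, -0.33 and 0.15 in numbers 1, 2 and 3. A dim one (232311_at) read 138, 100.4 and 105 on the control and 83.5, 80.8 and 48.0 on the miR21 arrays without overlap (log2 -0.72; limma over all probe sets with the block, adjusted p = 0.521).

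HLA-E, a class I heavy chain of low diversity that engages the NKG2A receptor of natural killer cells, went the other way. Its probe set of highest signal (200905_x_at) gave 5687, 9891 and 11518 on the control and 7902, 14774 and 11142.5 on the miR21 arrays. Numbers 1 and 2 were higher with miR21 and number 3 was nearly level, and the groups overlapped. The mean was 1.26-fold higher (log2 0.34, SE 0.37 without and 0.16 with the block, limma, adjusted p = 0.293 with the block). The x in this name marks probes that can also match related sequences, and class I heavy chain genes are very alike.

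A probe set of HLA-E without that mark (200904_at) gave 1533, 2169 and 1540.0 on the control and 2230.2, 3304 and 1614 on the miR21 arrays. It was higher in all 3 numbers, with log2 differences of 0.54, 0.61 and 0.07. The third (217456_x_at) gave 4227, 2955 and 3820.4 on the control and 5422, 5002 and 4716 on the miR21 arrays, with no overlap (log2 0.47; exact two-sided permutation p = 0.1, adjusted 0.575 over the 23 probe sets). HLA-E thus read higher on average by 0.34 to 0.47 with each of its 3 probe sets. The difference of the first (200905_x_at) was 0.032 without control replicate 1, 0.12 without miR21 replicate 2, and 0.54 or 0.57 without control replicate 3 or miR21 replicate 1. In limma over all probe sets with the block 200904_at had an adjusted p of 0.397 and 217456_x_at one of 0.309.

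The classical heavy chain genes did not share that direction; they were named here after their values were seen. HLA-B had 3 probe sets with log2 differences of -0.18, -0.23 and -0.27, and HLA-C had 4 between -0.10 and -0.31. All of these carry the x mark. HLA-F and HLA-G, also heavy chain genes and also named after their values were seen, had probe sets of both signs. Those of HLA-G differed by 0.31, 0.21, -0.08 and -0.12, and those of HLA-F by 0.03, -0.05 and -0.22. A higher mean reading was thus not particular to HLA-E among heavy chain probe sets. The log2 ratio of HLA-E over HLA-B within an array differed by 0.92, 0.46 and 0.17 in numbers 1, 2 and 3 (mean 0.51 ± 0.38, SD, n = 3). Exact permutation over arrays, which ignores the replicate numbers, gave p = 0.3 (adjusted 0.84 over 7 ratios). HLA-E over B2M differed by 0.77, 0.62 and 0.23 (mean 0.54 ± 0.27, SD, n = 3). Its exact permutation p was 0.5 (adjusted 0.84), likewise without pairing, so it does not test the differences within numbers. Both ratios were thus higher with miR21 in every number, with overlapping groups.

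NLRC5, which encodes a transactivator of class I genes, gave 476, 696 and 516 on the control and 543, 994 and 452 on the miR21 arrays. Array 2 was brightest in both groups, and number 3 was lower with miR21. Its log2 difference was 0.17 (SE 0.38 without and 0.20 with the block, limma, adjusted p = 0.671 with the block). Within numbers 1, 2 and 3 it was 0.19, 0.51 and -0.19. It read -0.16 without miR21 replicate 2. TAP1, PSMB9 and TAPBP had their lowest differences in numbers 1 and 2, where the 1 NLRC5 probe set read higher by 0.19 and 0.51. Whether NLRC5 bears on those genes was not tested.

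Among 18 measured genes of class I loading and peptide supply outside the 10, 15 had a negative mean difference, beside 6250 of the 12206 genes tested, with a median of -0.11 on the log2 scale. No gene of these passed limma with or without the block. Lower in all 3 numbers were 6 of the 18, beside 20.9% of all genes tested, and 0 were higher in all 3, beside 20.3%. The iron regulator gene HFE, a relative of the class I heavy chains that presents no peptide, differed by -0.75, -1.13 and -0.75 in numbers 1, 2 and 3 (mean -0.88, SE 0.20 with the block; limma, adjusted p = 0.124). The lectin chaperone gene CALR differed by -0.42, the trimming enzyme gene ERAP2 by -0.39 and the chaperone gene CANX by 0.20. CALR and ERAP2 had the shape of PSMB9, at -0.63 and -0.70 (CALR) and -0.63 and -0.69 (ERAP2) in numbers 1 and 2 and at 0.06 and 0.14 in number 3. Differences of all genes tested also spread less in number 3 than in numbers 1 and 2, so this shape is not particular to these genes.

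Of 23 measured interferon signalling and class I regulator genes, 16 had a negative mean difference (median -0.20) and 7 a positive one. Over all 12206 genes tested, 6250 had a negative mean difference. Both this list and the one before it were drawn up with earlier results of these data known. Lower in all 3 numbers were 10 of the 23, beside 20.9% of all genes tested, and 3 were higher in all 3, beside 20.3%. No gene of the 23 passed limma with or without the block (smallest adjusted p = 0.157, with the block). IRF1, the interferon regulatory factor that acts on many class I pathway promoters, gave 1905, 1338 and 756 on the control and 760.1, 659 and 718 on the miR21 arrays. Control 3 lay within the miR21 arrays here too, as for TAP2, and the log2 differences were -1.33, -1.02 and -0.07 in numbers 1, 2 and 3 (limma, adjusted p = 0.163 with the block).

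IRF9, the DNA-binding part of the ISGF3 complex, gave 1347, 1847 and 466 on the control and 720.3, 902 and 409 on the miR21 arrays, with log2 differences of -0.90, -1.03 and -0.19. Both groups were lowest in number 3. SOCS3, a feedback inhibitor of cytokine receptors, gave 188, 169 and 97.6 on the control and 89.5, 49.8 and 72.6 on the miR21 arrays. The SOCS3 groups did not overlap, and its mean log2 difference was -1.09 (limma, adjusted p = 0.186 with the block). IRF3, a factor that starts interferon transcription, stood higher by 0.57, 0.56 and 0.16 in numbers 1, 2 and 3 (limma, adjusted p = 0.193 with the block).

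Only TAPBP, PSMB9 and TAP1 of the 10 genes had an unadjusted p under 0.05 in limma with the block (3 of 10, all lower, beside 10.3% of all genes tested that were lower with such a p). As the 10 were chosen with earlier results of these arrays known, this share is a description.

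Promoter sequences of 8 of the 10 genes were found in a RefSeq table (GRCh38.p14), in 11 windows from 250 bases before to 50 after a start site; HLA-E and NLRC5 were not matched. The core of the interferon-stimulated response element, GAAANNGAAA (TTTCNNTTTC on the other strand), occurred in windows of 7 of the 8 genes. It occurs in 3.57% of all 35116 windows and in 4.38% of genes with a window. The kB motif occurred in 4 of the 8 genes, beside 13.3% of genes, and the GAS core, TTCNNNGAA, in 2 of the 8, beside 9.38%. Both strands were searched, and a match is a description of letters, not of a bound site. Interferons raise many genes of this pathway together, so a high share with the core goes with the choice of genes and is no result about these arrays. All 8 genes with a window had a negative mean difference, and HLA-E and NLRC5, which read higher, had no window. The matches therefore cannot be set against direction. The stretches are shown because most of these genes share the core. Capitals mark the interferon element core and, upstream of the start site, the kB motif.
TAP1, chr6:32853759-32853846, minus strand: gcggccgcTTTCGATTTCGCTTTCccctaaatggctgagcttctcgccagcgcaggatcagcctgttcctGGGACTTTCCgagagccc
TAPBP, chr6:33314079-33314142, minus strand: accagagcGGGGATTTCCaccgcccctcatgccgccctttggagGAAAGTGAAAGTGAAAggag
B2M, chr15:44711365-44711409, plus strand: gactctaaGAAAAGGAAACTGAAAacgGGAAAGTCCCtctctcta
TAP2, chr6:32838780-32838805, minus strand: ggggaagcGAAAGCGAAAgctgcccg
PSMB10, chr16:67936854-67936879, minus strand: gtaaaggcGAAAGCGAAAgcaggaag
PSMB8, chr6:32844042-32844071, minus strand: cctccccttcgatctgtggcTTTCGCTTTC

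In TAP1, TAPBP and B2M the core occurs as 2 copies that overlap by 4 letters, with a kB match on the same stretch. In TAP2 and PSMB10 it occurs once, and the same 10 letters stand in both. In PSMB8 it spans the start site, and in ERAP1 it begins just after it. PSMB9, the gene with the lowest mean difference, held no match to the core in its own window. It lies head to head with TAP1, with 487 bases between the start sites, and the TAP1 copy nearest to it ends 354 bases from the PSMB9 start, beyond that window. PSMB9 and TAP1 differed by -1.12 and -0.65 in number 1, by -0.86 and -0.54 in number 2 and by 0.09 and -0.04 in number 3. Genes with the core in a window spanned differences from -0.17 (PSMB8) to -0.59 (TAPBP).

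**Figure D5:**
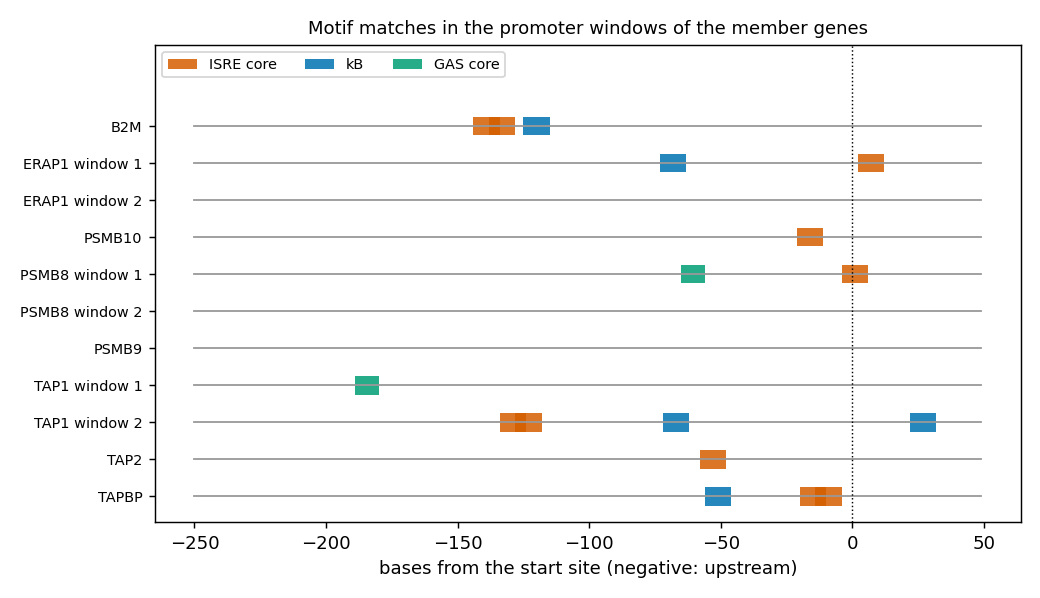
Matches to the ISRE core, the kB motif and the GAS core in the 11 promoter windows of 8 member genes, by distance from the start site in bases (dotted line at 0). The core lies within 144 bases of the start site in 7 genes, and the PSMB9 window holds none of the 3 motifs.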

How the data were processed

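Per the submitters' processing notes, the authors made the deposited intensity values with MAS5; its version is not given in the sources used. They are linear, 1 signal per probe set. On every array the mean is about 500 once 2% is trimmed at both ends, so a change common to most genes could not be seen. Probe sets were named from the platform annotation, and the 1801 naming several genes were not used. Log2 signals, with no pseudocount, were compared between the 2 groups in limma 3.58.1 (R 4.3.3; eBayes with trend), with Benjamini-Hochberg adjustment over 12206 genes at 0.05. The limma steps were tested on simulated data. Exact two-sided permutation tests served for single values. They exchanged all arrays between the groups without regard to replicate number.

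Replicate numbers come from the titles. The deviations of paired arrays correlated at 0.899, 0.638 and 0.635 for numbers 1, 2 and 3, above the limit of 0.1, so the numbers were taken as pairs. Control 2 with miR21 3 (0.283) and control 3 with miR21 2 (0.411) also passed that limit. The limit thus sets number 1 apart but does not by itself separate numbers 2 and 3. The planned comparison has no block. The replicate block changed the call of 0 of the 10 genes, and its values stand beside the unblocked ones as an alternative. Their smaller SE rests on the pairing, which the limit does not by itself settle for numbers 2 and 3. The members and gene lists were chosen with earlier results of these data known. Named outside the members were at most 4 genes per list by smallest p with the block, PSMB5, PSMB6, PSMB7, HLA-B, HLA-C, HLA-F and HLA-G. Alternatives were other normalizations, filters, probe set rules, the block and left-out arrays.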

Additional observations from a re-analysis of the deposited data

How the results depend on the processing

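The direction of each of the 10 genes was the same under quantile normalization, median centring, 16 added to each signal, no filter, the upper quartile filter where the gene remained, no variance trend, array weights and a gene value averaged over its probe sets. With the replicate block limma called 4 genes, and 7 with the block and no filter (added after the data were seen). Without both arrays of number 1, 2 or 3 the block fit called 59, 0 and 4004 genes, and 0, 0 and 6 of the 10. With 1 array left out 0 genes were called, and the median of the 10 genes lay between -0.39 and -0.073. Single arrays turned the sign of 5 genes: the ranges were -0.76 to 0.060 (TAP1), -0.48 to 0.22 (PSMB8), -0.80 to 0.27 (PSMB10), -0.72 to 0.19 (ERAP1) and -0.16 to 0.40 (NLRC5). The other ranges were 0.032 to 0.57 (HLA-E), -0.34 to -0.029 (B2M), -0.49 to -0.19 (TAP2), -0.86 to -0.43 (TAPBP) and -0.91 to -0.20 (PSMB9). NLRC5 was at -0.0015 in the block fit without number 2. The cause was not tested. The number of arrays limits every value, and dim probe sets are the least precise.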

Other observations

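MHC class II genes, which present peptides from outside the cell and are largely silent in epithelial cells, were mostly dim: 3 of 11 listed genes lay above the signal filter, and CIITA, CD74 and HLA-DRA lay below it. HLA-DMB, a peptide exchange factor for class II molecules whose gene neighbours PSMB9 and the TAP genes in the class II region, read 303, 766 and 350.1 on the control and 1887, 3712 and 293 on the miR21 arrays. The log2 differences were 2.64 and 2.28 in numbers 1 and 2 and -0.26 in number 3, so the groups overlapped. The mean was 1.55 (SE 0.89 without and 0.50 with the block), and limma did not call HLA-DMB (adjusted p = 0.173 with the block). Its direction in numbers 1 and 2 was opposite to that of PSMB9 and TAP1. HLA-DMA, the other chain of the exchange factor, differed by 0.18, 0.57 and -0.23.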
